A study of Homo sapiens with 12 samples.

Results

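The genes described here are 37 genes of homologous recombination and the Fanconi anemia pathway, chosen by name. For each one, the array probe set annotated with its symbol alone was used, and where a symbol had several, that with the highest mean over the 12 arrays. Of the 37 genes, 33 had such a probe set, out of 19775 genes named in the annotation. For FANCA, FANCD2, BRCA2 and RBBP8, no probe set carried the symbol alone in the annotation used here, and they were not analysed here. Probe sets annotated with several symbols were left out and not searched for them. All 33 genes passed the filter on low values, which asked for a log2 value above 4 on at least 3 of 12 arrays, whatever the group. On all 12 arrays 32 of them lay above 4, and the exception, FANCB, was at 3.98 on 1 control array.

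Transcript levels were measured on 12 Affymetrix arrays in HK-2 cells, a human kidney proximal tubule line that was immortalized with papillomavirus oncogenes. The cells grew in medium with growth factor, hydrocortisone, insulin, transferrin and selenite, and were treated when close to confluent, with Kbr at a low dose or with its vehicle. The labels used here state neither what Kbr stands for nor its concentration. The 4 groups were vehicle control at 24 h, Kbr at 24 h, vehicle control at 48 h and Kbr at 48 h, with 3 arrays each that the labels call biological replicates.

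Homologous recombination repairs broken DNA by copying an intact sister strand. Broken ends are cut back to single strands, a protein filament forms on them with the help of BRCA proteins and of a paralog family that includes RAD51B, RAD51C and XRCC3, and the joined molecules are later taken apart by the BLM complex. The Fanconi pathway deals with crosslinks between DNA strands: a core complex attaches ubiquitin to the FANCI and FANCD2 pair, which brings in nucleases and recombination proteins. Many of these genes are known to be transcribed mainly in dividing cells, around S phase and G2.

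Array medians lay between 2.91 and 2.99 on the log2 scale, 40.0 to 40.4% of the probe sets lay above 4 on each array, and Pearson's r between arrays of a group, over tested genes, was 0.982 to 0.993. The log2 signal of the 3′ ACTB control minus that of the 5′ one, a measure of RNA integrity, ranged from 0.67 to 1.07 over the arrays, with means of 0.79 in 24 h controls, 0.85 with Kbr at 24 h, 0.81 in 48 h controls and 0.91 with Kbr at 48 h. Its part in the results was not tested. All 6 epithelial markers passed the filter, but only 2 of 14 proximal tubule markers did, the cystine transporter subunit SLC3A1 and the transcription factor PAX8. No endothelial marker of 6 and no leukocyte marker of 7 passed, while 3 of 7 fibroblast markers did, COL1A1, DCN and LUM. The mean level of these 3 was 10.03 to 10.19 on the 48 h control arrays and 8.18 to 8.45 on the 48 h Kbr arrays, and its part in the results was not tested. In RNA from whole cultures, a change in the share of dividing cells and a change in transcript per cell cannot be told apart.

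Promoter sequences of 5 of the genes are shown because their letters hold motifs of cell cycle transcription factors, and because these genes carry the main patterns of the data. SLF1 had the smallest p of the 33 genes for a difference between the 48 h and 24 h effects of Kbr, BLM, RAD54L and RAD51AP1 fell with time in control cells and were higher with Kbr at 48 h, and FANCC was lower with Kbr at 48 h. Each line gives the 200 bases before an annotated start site, 5′ to 3′ on the gene's strand, from RefSeq (build GRCh38.p14). Capitals mark E2F-type matches (TTTGGCGC, TTTCGCGC, TTTCCCGC or TTTGCCGC, on either strand) in SLF1 and FANCC, and NF-Y boxes (CCAAT, on either strand, so also ATTGG) in BLM, RAD54L and RAD51AP1.
SLF1, chr5:94618469-94618668, plus strand: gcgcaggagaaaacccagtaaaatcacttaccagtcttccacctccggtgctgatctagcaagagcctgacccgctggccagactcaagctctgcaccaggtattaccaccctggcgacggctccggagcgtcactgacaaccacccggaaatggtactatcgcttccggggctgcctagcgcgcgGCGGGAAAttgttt
BLM, chr15:90717146-90717345, plus strand: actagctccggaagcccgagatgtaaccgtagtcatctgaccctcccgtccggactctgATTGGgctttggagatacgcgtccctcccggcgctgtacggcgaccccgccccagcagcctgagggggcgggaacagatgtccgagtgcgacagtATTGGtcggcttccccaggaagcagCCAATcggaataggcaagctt
RAD54L, chr1:46247488-46247687, plus strand: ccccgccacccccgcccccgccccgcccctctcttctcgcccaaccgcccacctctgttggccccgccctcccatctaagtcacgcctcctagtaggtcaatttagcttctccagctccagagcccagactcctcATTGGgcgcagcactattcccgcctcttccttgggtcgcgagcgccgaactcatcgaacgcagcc
RAD51AP1, chr12:4538690-4538889, plus strand: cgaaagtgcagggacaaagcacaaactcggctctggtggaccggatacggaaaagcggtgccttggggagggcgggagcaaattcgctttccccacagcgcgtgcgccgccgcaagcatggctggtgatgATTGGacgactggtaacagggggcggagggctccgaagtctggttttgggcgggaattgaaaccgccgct
FANCC, chr9:95317710-95317909, minus strand: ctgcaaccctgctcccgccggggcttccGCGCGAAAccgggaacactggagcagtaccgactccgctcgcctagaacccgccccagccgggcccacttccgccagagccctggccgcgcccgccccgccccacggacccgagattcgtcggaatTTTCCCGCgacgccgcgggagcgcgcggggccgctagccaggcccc

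In windows of 300 bases, 250 before a start site and 50 after it, 29 of the 33 genes had an entry, with 40 windows in all. FANCI, RAD54B, NBN and RMI2 had none. An E2F-type match was found in 12.5% of these windows and in 3.31% of all 35116 promoter windows. The genes with a match were EXO1, SLF1, XRCC2, RMI1 and FANCC. An NF-Y box was found in 47.5% of the windows against 34.6% of all, and the CHR element TTTGAA in 10.0% against 15.2%. Matches of different motifs overlapped in 0 cases. Counted by gene, 39.7% of all genes with a window held an NF-Y box, 3.99% an E2F-type match and 18.2% a CHR element. Of the 14 genes with a window that were higher with Kbr at 48 h, 9 held an NF-Y box (64.3%), 3 an E2F-type match and 0 a CHR element. Of the 12 that did not pass, 6 held an NF-Y box, 1 an E2F-type match and 3 a CHR element. Of the 3 with a window that were lower, FANCC held an E2F-type match and a CHR element, and 0 held an NF-Y box. A match describes letters in a window and shows no binding.

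Kbr against vehicle at 48 h was the comparison with most changes. RAD51C, RAD54L, RAD54B, EXO1, BLM, SLF1, FANCB and FANCM were 1.54-fold to 2.42-fold higher in Kbr-treated cells, while RMI2, RAD51B, FANCC and FANCL were 1.44-fold to 2.37-fold lower. Of the 33 genes, 16 were higher (48.5%) and 4 lower (12.1%) at an adjusted p under 0.05 in limma, and 13 did not pass. The 16 include RAD50, whose other probe sets had the opposite sign. Over all 10665 genes tested, 22.0% were higher and 20.8% lower. When the replicate number, which the groups share, entered the fit as a block, 17 were higher and 6 lower, against 28.7% and 28.8% of all genes. The median log2 change of the 33 genes was 0.34, against -0.00384 over all genes, and 21 of 33 had a positive sign (63.6%, against 49.7% of all genes). The change was at least 2-fold in 7 genes, upwards in FANCB, RAD51C, RAD54B, EXO1 and BLM and downwards in RAD51B and RMI2. The share of all genes with a change of that size is not given here. In 17 genes all 3 Kbr arrays lay above all 3 controls, and in 5 all lay below. Such a separation, in either direction, was found in 50.9% of all genes. The plot of the effects by role shows all 33 genes at both times.

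**Figure D1:**
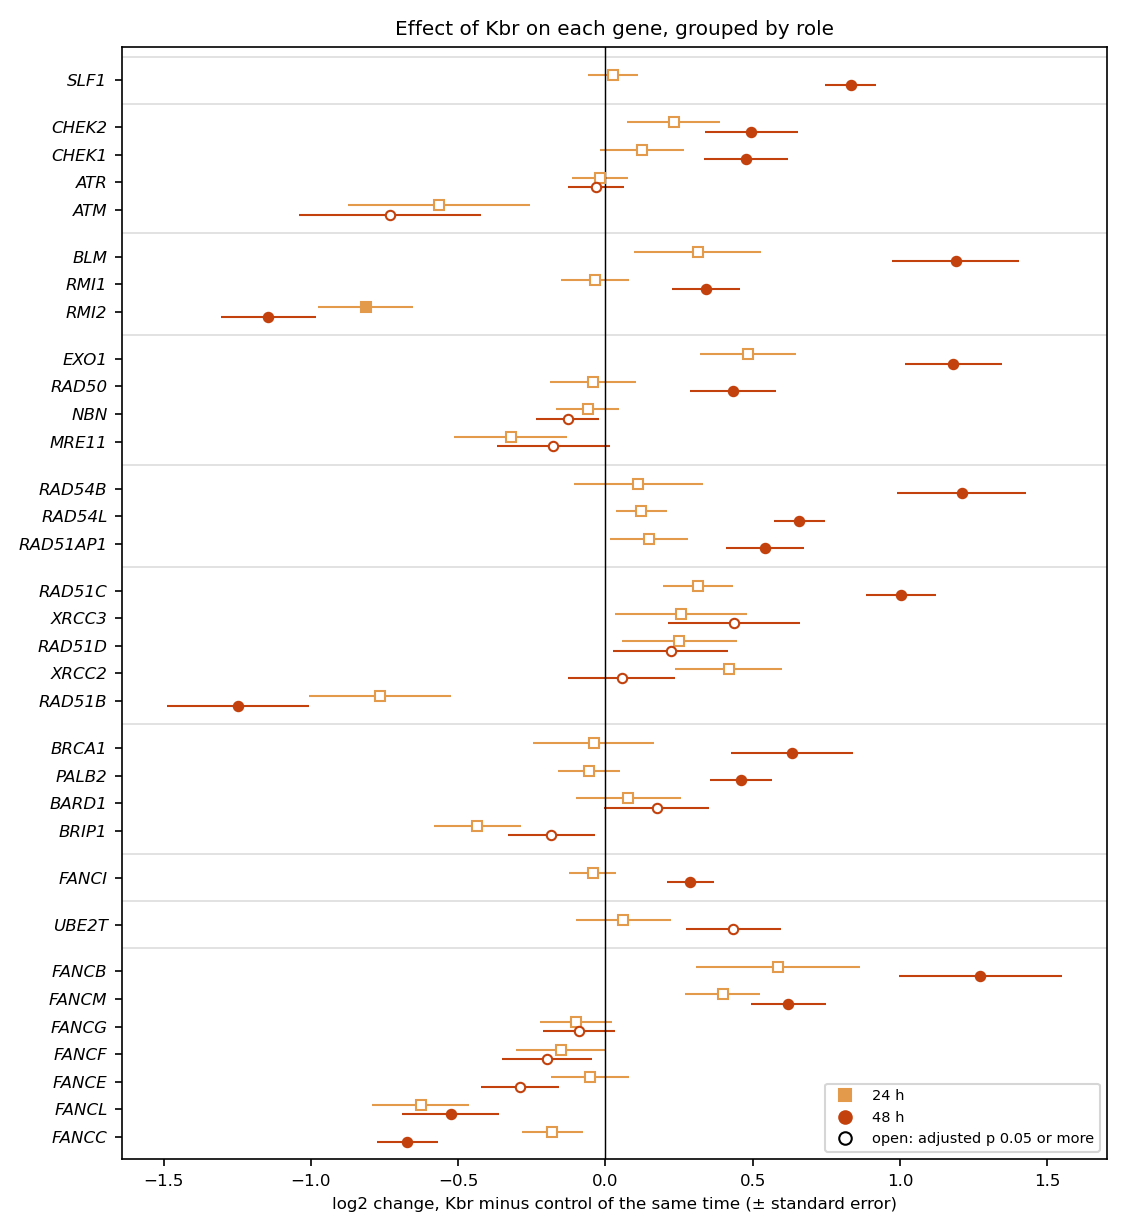
Log2 change with Kbr against vehicle control of the same time (x axis) for each of the 33 genes (y axis), at 24 h (squares) and 48 h (circles), with bars of 1 standard error from limma. Grey lines separate the roles, from SLF1 at the top to the Fanconi core complex at the bottom; filled symbols had an adjusted p under 0.05, which at 24 h was RMI2 alone.

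The Fanconi core complex, which holds the ubiquitin ligase of the pathway, and its anchor FANCM did not move as a unit. Of 7 measured genes, FANCB and FANCM were higher with Kbr at 48 h, FANCC and FANCL lower, and FANCE, FANCF and FANCG did not pass. FANCB, a partner of the ligase subunit, gave a signal near the floor of the filter. It stood at 3.98, 5.09 and 5.35 in 48 h controls and at 5.86, 6.17 and 6.21 with Kbr. At 24 h the values were 5.63, 5.79 and 5.81 in controls and 6.35, 6.45 and 6.19 with Kbr. The Kbr arrays lay above the controls at both times, and control replicate 1 at 48 h lay well below the other controls. FANCB was 2.42-fold higher at 48 h (log2 change 1.27, standard error 0.28, adjusted p = 0.00414), and its log2 change at 24 h was 0.59 (adjusted p = 0.229). In a fit of all probe sets, 2 others of FANCB gave 0.88 (adjusted p = 0.0204) and 0.86 (adjusted p = 0.123) at 48 h.

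FANCM, a DNA translocase that anchors the core complex at stalled forks, stood at 5.66, 5.83 and 5.98 in 48 h controls and at 6.22, 6.60 and 6.51 with Kbr. At 24 h it stood at 6.05, 6.30 and 6.32 in controls and at 6.68, 6.63 and 6.56 with Kbr. All Kbr values were above all controls of their time. The difference was 1.54-fold at 48 h (log2 change 0.62, standard error 0.13, adjusted p = 0.00294) and 0.40 on the log2 scale at 24 h (adjusted p = 0.0877, and 0.0206 when the replicate number was a block in the fit). A second probe set of FANCM gave 0.48 at 48 h (adjusted p = 0.0878 in a fit of all probe sets).

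FANCC, which forms a subcomplex with FANCE and FANCF, stood at 8.18, 7.92 and 8.04 in 48 h controls and at 7.34, 7.36 and 7.42 with Kbr. At 24 h the controls were at 7.99, 7.83 and 7.63 and the Kbr arrays at 7.63, 7.66 and 7.63. Kbr and control arrays overlapped at 24 h and not at 48 h. FANCC was 1.59-fold lower at 48 h (log2 change -0.67, standard error 0.10, adjusted p = 0.000666), and its log2 change at 24 h was -0.18 (adjusted p = 0.323).

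FANCL is the ligase subunit itself. It stood at 10.38, 10.36 and 9.88 in 24 h controls and at 9.81, 9.62 and 9.31 with Kbr, and at 10.39, 10.41 and 10.23 in 48 h controls and 9.64, 9.82 and 9.99 with Kbr. Kbr arrays lay below controls at both times. The log2 change was -0.63 at 24 h (adjusted p = 0.0516, and 0.0184 with the block) and -0.53 at 48 h (1.44-fold lower, standard error 0.17, adjusted p = 0.0254). The 48 h call was lost without replicate 1 or 2 of either 48 h group (adjusted p up to 0.0872) and without a filter (0.0576). Among the other subunits, FANCE had a log2 change of -0.29 at 48 h (adjusted p = 0.0998, and 0.0176 with the block), FANCF of -0.20 and FANCG of -0.09. A second probe set of FANCF gave -0.63 at 48 h (adjusted p = 0.00766 in a fit of all probe sets).

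Downstream of the core complex, UBE2T is the conjugating enzyme that works with the ligase subunit FANCL, and FANCI is 1 of the pair that receives the ubiquitin. UBE2T, with a mean of 11.07 in 48 h controls and 11.50 with Kbr, had a log2 change of 0.43 (standard error 0.16, adjusted p = 0.0505, and 0.00105 with the block). FANCI stood at 9.60, 9.68 and 9.77 in 48 h controls and at 10.04, 9.91 and 9.98 with Kbr. Its 24 h values were 9.99, 9.95 and 10.02 in controls and 9.94, 9.89 and 9.99 with Kbr. The 48 h controls lay below all other arrays. FANCI was 1.22-fold higher at 48 h (log2 change 0.29, standard error 0.08, adjusted p = 0.0149). Leaving out control replicate 1 of 48 h ended this call (adjusted p = 0.0532), as did the mean of its probe sets (0.176).

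In the BRCA group, BRCA1 and PALB2 were higher with Kbr at 48 h, and BARD1 and BRIP1 did not pass. BRCA1 is a ubiquitin ligase that steers broken ends towards recombination. It stood at 8.79, 8.18 and 8.65 in 48 h controls and at 9.52, 9.01 and 8.99 with Kbr, and at 8.94, 8.69 and 8.79 in 24 h controls and 9.14, 8.59 and 8.58 with Kbr. The arrays overlapped at 24 h and did not at 48 h. BRCA1 was 1.55-fold higher at 48 h (log2 change 0.63, standard error 0.21, adjusted p = 0.0295). The call was lost without control replicate 2 or Kbr replicate 1 at 48 h (adjusted p up to 0.110) and without a filter (0.0742). A second BRCA1 probe set gave a log2 change of 0.70.

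PALB2, which bridges BRCA1 and BRCA2, went from 8.74 ± 0.12 in 48 h controls to 9.20 ± 0.09 with Kbr (mean ± SD, n = 3), a 1.37-fold difference (log2 change 0.46, standard error 0.11, adjusted p = 0.00536). The 24 h value was -0.05 (adjusted p = 0.803). BARD1, the partner of BRCA1, had a log2 change of 0.17 at 48 h with an interval of -0.22 to 0.57 (95% confidence interval of the fit), while a second probe set gave 0.54 (adjusted p = 0.0113 in a fit of all probe sets) and another -0.02 (adjusted p = 0.941). BRIP1, a helicase that binds BRCA1, had a log2 change of -0.43 at 24 h (adjusted p = 0.105, and 0.0352 with the block) and of -0.18 at 48 h (adjusted p = 0.338).

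The paralogs RAD51B, RAD51C, RAD51D, XRCC2 and XRCC3, which stabilize the filament on single strands, did not move together: at 48 h RAD51C was higher with Kbr, RAD51B was lower and the other three did not pass. RAD51C, a subunit of both paralog complexes, stood at 8.82, 9.07 and 9.12 in 48 h controls and at 10.09, 10.12 and 9.82 with Kbr. At 24 h RAD51C stood at 9.49, 9.72 and 9.70 in controls and at 9.87, 9.95 and 10.03 with Kbr. The 48 h controls were the lowest of the 4 groups, and no Kbr array overlapped with its controls. RAD51C was 2.00-fold higher at 48 h (log2 change 1.00, standard error 0.12, adjusted p = 0.000166), and a second probe set gave 0.79. The 24 h log2 change was 0.31 (adjusted p = 0.140).

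RAD51B, a subunit of the larger paralog complex, also gave a signal near the floor of the filter. It stood at 5.58, 6.49 and 5.56 in 48 h controls and at 4.45, 4.69 and 4.75 with Kbr. The 24 h controls were at 5.50, 5.00 and 5.02 and the 24 h Kbr arrays at 4.48, 4.58 and 4.16. Every Kbr array lay below every control of its time, and control replicate 2 at 48 h stood above the other controls. RAD51B was 2.37-fold lower at 48 h (log2 change -1.25, standard error 0.24, adjusted p = 0.00211), and its log2 change at 24 h was -0.77 (adjusted p = 0.0849, and 0.0410 with the block). XRCC3, RAD51D and XRCC2 had log2 changes of 0.44, 0.22 and 0.06 at 48 h, with adjusted p of 0.138, 0.388 and 0.833. Another RAD51B probe set, above 4 on 1 of 12 arrays, gave a log2 change of 0.70 at 48 h (adjusted p = 0.0403 in a fit of all probe sets).

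All 3 genes of strand exchange, whose proteins help the filament invade the matching strand, were higher with Kbr at 48 h. RAD54B, a motor protein, stood at 6.68, 7.15 and 7.55 in 48 h controls and at 8.34, 8.48 and 8.18 with Kbr. Its 24 h values were 7.83, 8.29 and 7.88 in controls and 7.96, 8.43 and 7.94 with Kbr. The arrays overlapped at 24 h, and at 48 h the controls were both lower and more spread. RAD54B was 2.31-fold higher at 48 h (log2 change 1.21, standard error 0.22, adjusted p = 0.00150), with a 24 h value of 0.11 on the log2 scale (adjusted p = 0.808).

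RAD54L, the related motor protein with an NF-Y box in its printed promoter, varied little within groups. It stood at 8.27, 8.26 and 8.28 in 24 h controls, at 8.39, 8.45 and 8.33 with Kbr at 24 h, and at 8.27, 8.29 and 8.29 with Kbr at 48 h. Only the 48 h controls were lower, at 7.74, 7.47 and 7.67. RAD54L was 1.58-fold higher with Kbr at 48 h (log2 change 0.66, standard error 0.09, adjusted p = 0.000267). RAD51AP1, which stimulates strand pairing, stood at 9.99, 10.18 and 10.33 in 48 h controls and at 10.89, 10.70 and 10.53 with Kbr. Its 24 h values were 10.58, 10.70 and 10.94 in controls and 10.93, 10.77 and 10.96 with Kbr, so the 48 h controls were again the lowest group. The 48 h difference was 1.46-fold (log2 change 0.54, standard error 0.13, adjusted p = 0.00796).

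**Figure D2:**
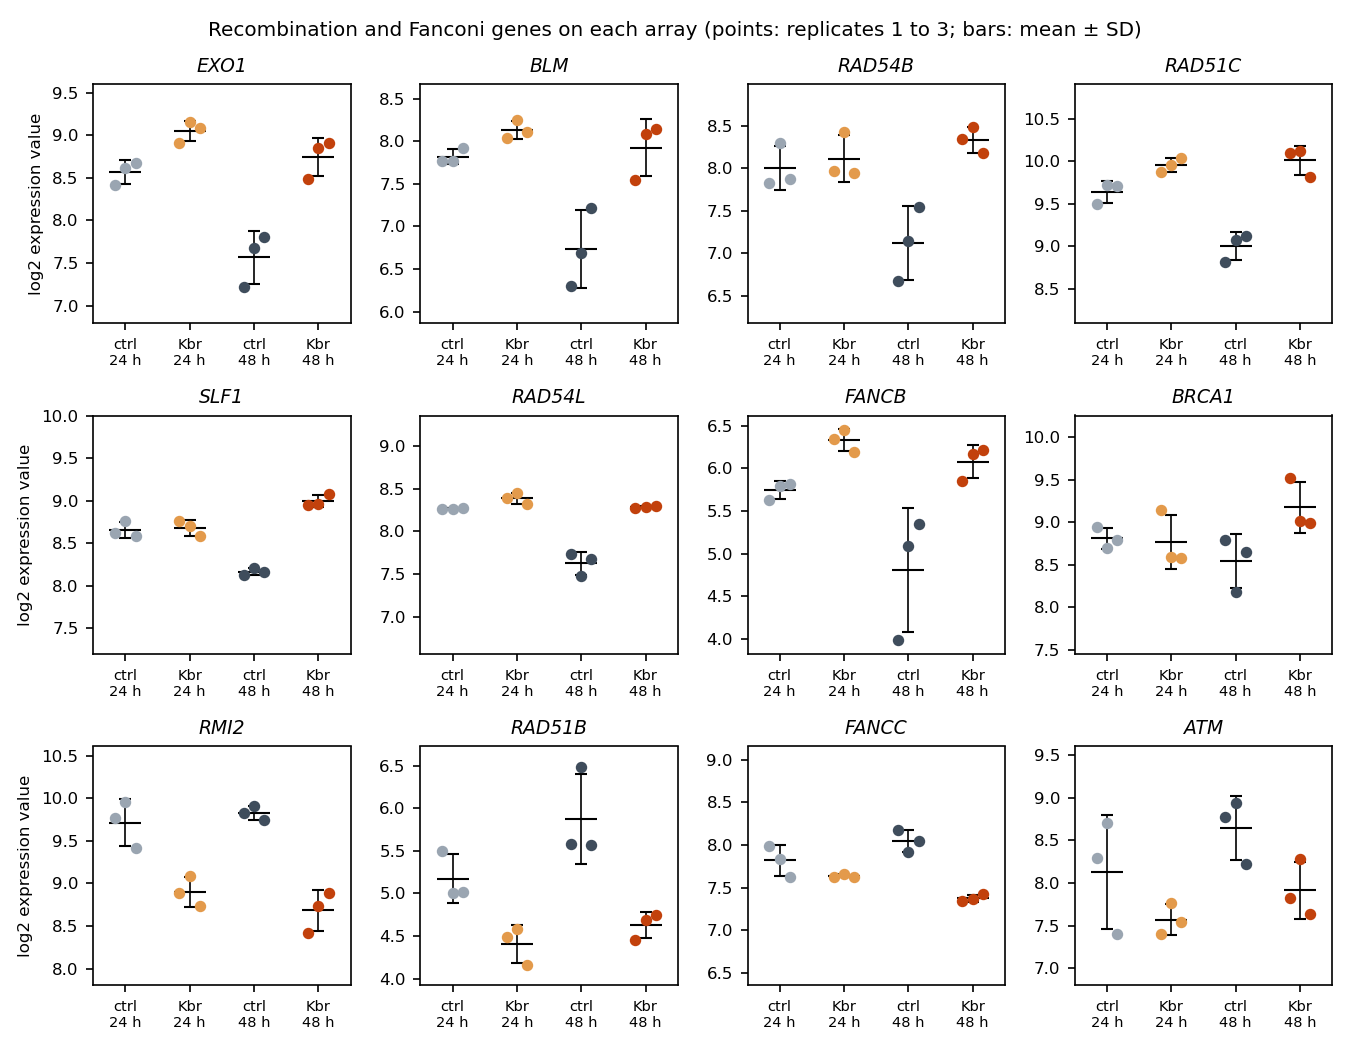
Log2 expression value (y axis) of 12 of the genes on each array, by group (x axis); points are replicates 1 to 3 from left to right, and bars are the mean and SD of 3 arrays. In the upper rows the 48 h controls are the lowest group for EXO1, BLM, RAD54B, RAD51C, SLF1, RAD54L and FANCB. The Kbr arrays of RMI2 and RAD51B, by contrast, lie below the controls at both times. Each y axis covers the same span on the log2 scale but is centred on a different level.

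End resection turns a break into single strands. EXO1, a nuclease of long-range resection, stood at 7.22, 7.67 and 7.81 in 48 h controls and at 8.49, 8.85 and 8.90 with Kbr. At 24 h it stood at 8.41, 8.61 and 8.68 in controls and at 8.91, 9.15 and 9.08 with Kbr. Kbr arrays lay above controls at both times. EXO1 was 2.27-fold higher at 48 h (log2 change 1.18, standard error 0.16, adjusted p = 0.000351). Its 24 h log2 change was 0.48 (adjusted p = 0.104, and 0.00544 with the block).

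The genes of the MRE11, RAD50 and NBN complex, which starts resection, gave less clear values. RAD50 had a log2 change of 0.43 at 48 h (standard error 0.15, adjusted p = 0.0345), but its other probe sets gave -0.16 and -1.11 and their mean -0.28, so no direction is drawn for it. The call also ended when control replicate 1 or 3 or Kbr replicate 1 or 2 of 48 h was left out (adjusted p up to 0.115), without a filter (0.0675) and with repeated quantile normalization (0.0681). MRE11 had log2 changes of -0.32 at 24 h (adjusted p = 0.337, and 0.0194 with the block) and -0.18 at 48 h. NBN had -0.06 and -0.13, neither past the test. Its 3 Kbr arrays at 48 h lay below all 48 h controls, as in 24.9% of all genes. The margin was small, with the highest Kbr value at 10.63 and the lowest control at 10.64. Other NBN probe sets above the floor gave 0.03, -0.19 and 0.03 at 48 h.

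The BLM complex, which dissolves joined DNA molecules, split between its subunits. BLM, the helicase, stood at 6.30, 6.69 and 7.22 in 48 h controls and at 7.54, 8.09 and 8.14 with Kbr. At 24 h BLM stood at 7.76, 7.77 and 7.92 in controls and at 8.04, 8.25 and 8.11 with Kbr. Kbr arrays lay above controls at both times, and all 48 h controls lay below the 24 h controls. BLM was 2.28-fold higher at 48 h (log2 change 1.19, standard error 0.22, adjusted p = 0.00150), with a log2 change of 0.31 at 24 h (adjusted p = 0.412).

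RMI2, a small subunit that stabilizes the complex, went the other way. It stood at 9.77, 9.96 and 9.41 in 24 h controls and at 8.89, 9.09 and 8.73 with Kbr, and at 9.83, 9.91 and 9.74 in 48 h controls and 8.42, 8.73 and 8.89 with Kbr. Kbr arrays lay below controls at both times, and the control means were 9.71 and 9.83. RMI2 was 1.76-fold lower at 24 h (log2 change -0.81, standard error 0.16, adjusted p = 0.0195) and 2.21-fold lower at 48 h (log2 change -1.14, adjusted p = 0.000385). Its 24 h call was lost without replicate 1 or 2 of the 24 h controls or replicate 1 or 3 of the 24 h Kbr arrays (adjusted p up to 0.0834), and its 48 h call was lost in no fit that left out 1 array. RMI1, the scaffold subunit, had a log2 change of 0.34 at 48 h (1.27-fold higher, adjusted p = 0.0350). That call was lost without control replicate 2 or 3 or Kbr replicate 1 or 2 of 48 h (adjusted p up to 0.124) and with repeated quantile normalization (0.0715).

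Among the damage kinases, the effector kinases CHEK1 and CHEK2 were higher with Kbr at 48 h, and ATM and ATR, which act above them, did not pass. CHEK1 stood at 8.74, 9.20 and 9.30 in 48 h controls and at 9.41, 9.69 and 9.57 with Kbr, and at 9.31, 9.58 and 9.49 in 24 h controls and 9.54, 9.64 and 9.57 with Kbr. The arrays were separate at 48 h and overlapped at 24 h. The 48 h difference was 1.39-fold (log2 change 0.48, standard error 0.14, adjusted p = 0.0201). This call ended when control replicate 1 or Kbr replicate 2 of 48 h was left out (adjusted p up to 0.0735), and further probe sets gave 0.46 and 0.52.

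CHEK2 stood at 7.46, 7.80 and 7.84 in 48 h controls and at 8.13, 8.28 and 8.18 with Kbr. The 24 h values were 7.53, 8.11 and 7.63 in controls and 7.88, 8.14 and 7.95 with Kbr. Again the arrays were separate at 48 h only. The 48 h difference was 1.41-fold (log2 change 0.50, standard error 0.16, adjusted p = 0.0264), lost when control replicate 1 or Kbr replicate 2 or 3 of 48 h was left out (adjusted p up to 0.102) and without a filter (0.0572).

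ATM, the kinase that answers to double-strand breaks, spread widely within groups. It stood at 8.30, 8.71 and 7.40 in 24 h controls and at 7.40, 7.76 and 7.55 with Kbr, and at 8.78, 8.94 and 8.22 in 48 h controls and 7.82, 8.28 and 7.64 with Kbr. The groups overlapped at both times, and within each replicate number at 48 h the Kbr array was the lower. The log2 change at 48 h was -0.73 (standard error 0.31, adjusted p = 0.0773, and 0.00892 with the block), and a second probe set gave -0.83 (adjusted p = 0.00258 in a fit of all probe sets). ATR, the kinase of stalled forks, stood at 9.64, 9.93 and 9.81 in 48 h controls and at 9.72, 9.79 and 9.77 with Kbr. ATR values at 24 h were 9.99, 10.14 and 10.19 in controls and 10.10, 10.13 and 10.04 with Kbr. The Kbr values lay within the spread of the controls at 48 h, and the interval of the difference there was -0.24 to 0.18.

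SLF1 brings the SMC5/6 complex to damaged DNA. It stood at 8.13, 8.21 and 8.16 in 48 h controls and at 8.95, 8.96 and 9.08 with Kbr. SLF1 values at 24 h were 8.63, 8.76 and 8.58 in controls and 8.76, 8.70 and 8.58 with Kbr. The 48 h controls were the lowest group and the 48 h Kbr arrays the highest, while the 24 h groups overlapped. SLF1 was 1.78-fold higher with Kbr at 48 h (log2 change 0.83, standard error 0.09, adjusted p = 9.51e-05), against a 24 h value of 0.03 (adjusted p = 0.898). A second SLF1 probe set, whose mean of 4.67 was near the floor, gave 0.17 at 48 h (adjusted p = 0.620 in a fit of all probe sets).

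At 24 h, 0 of the 33 genes were higher with Kbr and 1, RMI2, was lower in limma, where 2.48% of all genes were higher and 3.25% lower. At an unadjusted p under 0.05 there were 8 genes. The share of all genes at that looser threshold is not given here, so this count has no background beside it. Under the replicate block the counts were 2 higher, EXO1 and FANCM, and 5 lower, BRIP1, FANCL, MRE11, RAD51B and RMI2. Under that fit 10.4% of all genes were higher and 14.0% lower. The median log2 change at 24 h was -0.02, as over all genes. The groups did not overlap in 11 of the 33 genes, 7 above and 4 below, and in 31.8% of all genes.

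The difference between the 48 h and the 24 h effect of Kbr was tested directly. Only SLF1 passed, with a difference of 0.81 on the log2 scale (standard error 0.12, adjusted p = 0.0436), and 0 genes passed in the other direction. Of all genes, 0.0656% passed upwards and 0.075% downwards by adjusted p. An unadjusted p under 0.05 was found in 12 of the 33 genes. The share of all genes at that looser threshold is not given here. SLF1 kept this call in 1 of 12 fits that left out 1 array, the fit without Kbr replicate 3 at 48 h. In the others its adjusted p reached 0.125. Over all genes, 315 passed upwards in the fit that kept the call, 0 to 4 in the others, and 7 with all 12 arrays. The SLF1 call was also lost under repeated quantile normalization, array median subtraction, the mean of probe sets, and an intensity trend with robust variance. Adjusted p was up to 0.181 there. With the replicate block 10 genes passed upwards and 0 downwards, where 3.41% and 3.95% of all genes did. These were BLM, BRCA1, EXO1, PALB2, RAD50, RAD51C, RAD54B, RAD54L, RMI1 and SLF1. In a fit of all probe sets, the other RAD50 probe sets gave differences of -0.02 and -0.34. The largest of the 33 differences was that of RAD54B, 1.10 (adjusted p = 0.154, and 0.0408 with the block).

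The control cells themselves changed between 24 h and 48 h. RAD54L fell by 0.64 on the log2 scale (standard error 0.09, adjusted p = 0.00939), EXO1 fell by 1.00 (adjusted p = 0.0167), SLF1 by 0.49 (adjusted p = 0.0201), RAD51C by 0.63 (adjusted p = 0.0261), BLM by 1.08 (adjusted p = 0.0319) and RAD51AP1 by 0.57 (adjusted p = 0.0453). These 6 were lower at 48 h and 0 were higher, while 1.42% of all genes were higher and 1.88% lower. With the replicate block 17 were lower and 0 higher, where 9.23% of all genes were higher and 13.3% lower. The further 11 were ATR, BARD1, BRIP1, CHEK1, FANCB, FANCG, FANCI, FANCM, NBN, RAD54B and UBE2T. Of the 33 genes, 24 had a negative sign and 9 a positive one (27.3%, against 46.1% of all genes). Their median log2 change was -0.30 against -0.02 over all genes.

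The count of 6 changed when single arrays were left out, as did the count over all genes. It was 3 without control replicate 1 or 2 at 24 h. It was 1 without control replicate 3 at 24 h or control replicate 1 or 2 at 48 h. Over all 10665 genes, 200 were lower in the fit of all arrays. Without control replicate 1 or 2 at 24 h, 47 and 134 were lower. Without control replicate 3 at 24 h, or control replicate 1 or 2 at 48 h, 7, 9 and 10 were. RAD54L passed whichever of the 12 arrays was left out (adjusted p up to 0.0491). EXO1 passed in 9 of them, lost without control replicate 3 of 24 h or control replicates 1 or 2 of 48 h (adjusted p up to 0.0935). RAD51C and SLF1 passed in 8 each, lost without replicates 2 or 3 and 1 or 3 of the 24 h controls, and each without replicate 1 or 2 of the 48 h controls (adjusted p up to 0.121 and 0.0808). BLM passed in 5 and RAD51AP1 in 3 (adjusted p up to 0.137 and 0.203). BLM was lost without any 24 h control, control replicate 1 or 2 at 48 h, or Kbr replicate 1 or 2 at 24 h. RAD51AP1 was lost without any of these or without Kbr replicate 3 at 24 h or Kbr replicate 2 at 48 h. Without a filter BLM and RAD51AP1 also missed the threshold (adjusted p = 0.0678 and 0.0789), and with the mean of probe sets RAD51C and SLF1 did (0.0531 and 0.169).

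The same day in Kbr-treated cells gave fewer calls in this set. RAD54L, EXO1, BLM and RAD51AP1 had log2 changes of -0.10, -0.30, -0.21 and -0.18 from 24 h to 48 h, RAD51C of 0.06, and 0 of these 5 passed. SLF1 rose by 0.32 (standard error 0.09, adjusted p = 0.0422) and PALB2 by 0.43 (adjusted p = 0.0301), while NBN fell by 0.39 (adjusted p = 0.0422). In all, 2 genes were higher and 1 lower at 48 h than at 24 h with Kbr, against 5.6% and 5.04% of all genes. With the replicate block they were 5 and 4, where 14.2% and 16.4% of all genes passed: BRCA1, PALB2, RAD50, RMI1 and SLF1 higher, and ATR, EXO1, FANCG and NBN lower. PALB2 passed in 8 of 12 fits without 1 array, lost without replicate 2 or 3 of the 24 h or replicate 1 or 2 of the 48 h Kbr arrays (adjusted p up to 0.107). NBN passed in 3 and SLF1 in 1 (adjusted p up to 0.129 and 0.146). NBN passed only without control replicate 2 or 3 at 24 h or control replicate 1 at 48 h, and SLF1 only without control replicate 2 at 24 h. SLF1 also missed the threshold under the 4 settings that ended its difference call (up to 0.226), and NBN without a filter, with the array median subtracted or with the mean of probe sets (up to 0.0608).

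The mean log2 level of the 33 genes was 8.45 to 8.58 on the 24 h control arrays and 8.44 to 8.53 on the 24 h Kbr arrays. It was 8.15 to 8.34 on the 48 h control arrays and 8.46 to 8.56 on the 48 h Kbr arrays. Of the 4 groups, the 48 h controls alone lay outside the range of the others. The contrast of Kbr with control at 48 h and the change of controls with time share the same 48 h control arrays, so a low value there enters both.

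**Figure D3:**
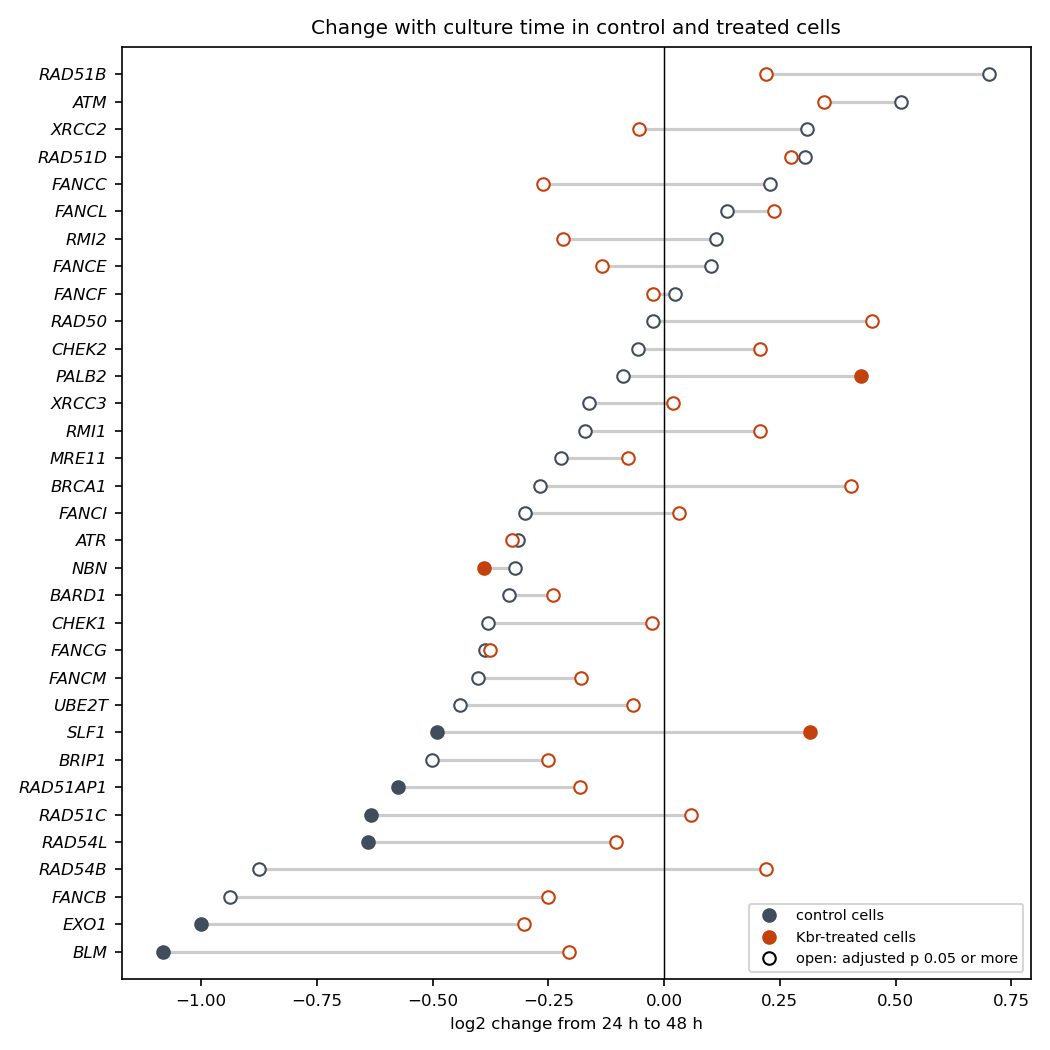
Log2 change from 24 h to 48 h (x axis) of each of the 33 genes (y axis), in control cells (dark points) and in Kbr-treated cells (red points), ordered by the change in control cells. Filled points had an adjusted p under 0.05; in control cells BLM, EXO1, RAD54L, RAD51C, RAD51AP1 and SLF1 lie at -1.08 to -0.49, and a grey line joins each gene's values.

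Other genes of recombination and of the Fanconi pathway, on a list of 49 with 46 tested, gave 13 higher (28.3%) and 8 lower (17.4%) with Kbr at 48 h, near the 22.0% and 20.8% of all genes, with a median log2 change of 0.16. Under the block they were 19 (41.3%) and 10 (21.7%), against 28.7% and 28.8% of all genes. SMC6, a subunit of the complex that SLF1 recruits, went from 9.17 to 10.01 (log2 change 0.84, adjusted p = 9.07e-05). RIF1, which protects ends from resection, had 0.97 (adjusted p = 0.000329), the meiotic recombination factor MND1 0.65 (adjusted p = 0.000566) and the ubiquitin ligase RNF8 0.86 (adjusted p = 0.000684). BABAM2, of the BRCA1-A complex, and SFR1, a recombination accessory factor, were lower, at -0.69 and -0.57 (adjusted p = 0.000650 and 0.000903).

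End joining, which repairs breaks without a template, gave 3 higher (27.3%) and 1 lower (9.09%) of 11 tested, with a median of 0.26, and 5 and 2 with the block. POLQ, the polymerase of the microhomology route, was 2.39-fold higher (log2 change 1.26, adjusted p = 0.00235), LIG3 and XRCC6 had 0.40 and 0.35, and XRCC1 had -0.67 (adjusted p = 0.0169).

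Genes of DNA replication and G1/S gave 9 higher (23.1%, near the 22.0% of all genes) and 4 lower (10.3%) of 39 tested at 48 h, with a median of 0.04, and 11 and 9 with the block. The replication licensing factor CDC6 went from 8.41 in controls to 10.72 with Kbr (log2 change 2.31, adjusted p = 0.000129), MCM10 had 1.90, RFC3 1.21, ORC6 1.11 and RFC4 0.46, while the polymerase subunit POLA1 had -0.75 (adjusted p = 0.000451). Genes of G2 and mitosis gave 24 higher (80.0%) and 1 lower (3.33%) of 30, with a median of 0.57, and 27 and 1 with the block. CCNB1, the mitotic cyclin, had 1.06 (adjusted p = 0.000200), AURKA 0.79, BUB1 0.75, NDC80 0.63, TOP2A 0.57 and PRC1 0.54. Components of the E2F, RB and DREAM complexes, which set the transcription of such genes, gave 7 higher (36.8%) and 1 lower (5.26%) of 19, with a median of 0.18, and 8 and 2 with the block. LIN52 had 0.92, E2F3 0.68, E2F6 0.67, LIN9 0.56 and LIN54 0.41, and the pocket protein gene RBL2 had -0.74 (adjusted p = 0.000856).

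These cell cycle lists also moved with time in control cells, where 11 of 39 replication genes and 16 of 30 mitosis genes were lower at 48 h and 0 of either were higher. Under the block 23 and 29 were lower and 0 higher, where 13.3% of all genes were lower. Their mean level was 9.74 to 10.06 for replication and 10.38 to 10.65 for mitosis on the 48 h control arrays, and 9.96 to 10.18 and 10.93 to 11.14 on the 48 h Kbr arrays. The part of cell cycle state in the values of the recombination genes was not tested.

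**Figure D4:**
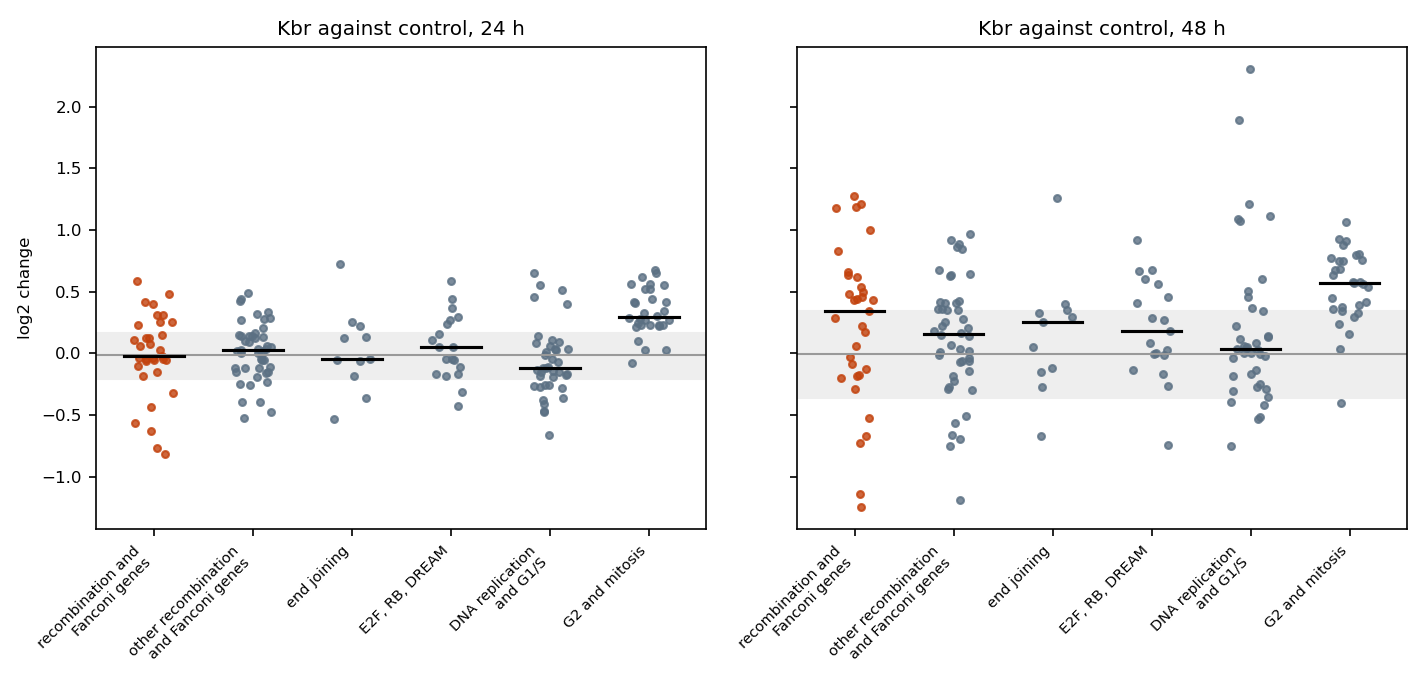
Log2 change with Kbr against control at 24 h (left) and 48 h (right) for each tested gene of 6 lists (x axis), with a black line at each list's median. The grey line and band mark the median and the interquartile range over all genes tested; at 48 h the medians of the 33 recombination and Fanconi genes and of the 30 mitosis genes were 0.34 and 0.57.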

How the data were processed

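The authors deposited 1 log2 expression value for each of 54675 probe sets and 12 arrays, computed with GCRMA per the submitters' processing notes. This method corrects background by probe sequence, normalizes by quantiles and summarizes probe sets. Its version and settings are not given in the sources.

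A single symbol was annotated to 41091 probe sets. Probe sets with several symbols (1801) or none (11721) and 62 array controls were left out. Each gene kept the probe set with the highest mean. Genes above a log2 value of 4 on at least 3 arrays were kept, 10665 in all.

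A linear model of 4 group means was fitted with limma 3.58.1 (lmFit, eBayes) in R 4.3.3 and checked on simulated data. The simulated noise was independent between arrays, and changes were added to the Kbr arrays at 48 h alone. The check therefore does not cover arrays that are correlated by replicate number, as these are. All tests were two-sided, with Benjamini-Hochberg adjustment across 10665 genes and a threshold of 0.05. The p-values rest on a spread within groups that is pooled over the 4 groups and moderated across genes by eBayes. Leaving out any array can therefore change the p-values of every comparison. The number of 3 arrays a group limits the precision. An exact test of 3 against 3 arrays could not go below 0.1. Higher, lower, rose and fell refer to this test. Standard errors and 95% intervals are those of the fit. Other probe sets of a gene were tested in a fit of all probe sets.

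Replicate numbers are shared by the groups. Deviations from group means correlated at 0.279 to 0.701 for the 18 array pairs of the same number and at -0.454 to -0.0613 for the 36 pairs of different numbers. The numbers were therefore taken to pair the arrays, and the fit with the replicate number as a block is given where it changes a call. Values given without mention of the block come from the fit without it. That fit leaves differences between replicate numbers in the spread, so a gene that did not pass there may pass with the block.

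Arrays are given one by one for genes past the test, at most 16 by size of the 48 h change, and for BRCA1, FANCI, CHEK1, CHEK2, ATM and ATR. Up to 6 genes of each other pathway list with the smallest p at 48 h are named. The genes, the lists and these rules were chosen with earlier results of these data known. Alternatives were the block, no filter, a floor of 6, array median subtraction, repeated quantile normalization, probe sets averaged per gene, an intensity trend with robust variance, every other probe set, and leaving out each array in turn.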

Additional observations from a re-analysis of the deposited data

Results flagged for a closer look

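SLF1 met the rule for an effect that differs between groups, here the effect of Kbr at 48 h and at 24 h. The difference between the effects was 0.81 on the log2 scale (limma adjusted p = 0.0436 over 10665 genes, and 0.0116 with the replicate block). The effect was 0.83 at 48 h, with all 3 Kbr arrays above all 3 controls, and 0.03 at 24 h. Of the 0.81, the control cells contributed a fall of 0.49 and the Kbr-treated cells a rise of 0.32 between the times. A second probe set of SLF1 gave a difference of 0.05. Groups of 3 arrays were not searched for single arrays that stand apart.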

How the results depend on the processing

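Of the 20 calls at 48 h, 13 were kept whichever array was left out and under the 7 other settings of the fit (5 for RAD51B, which was not tested with a floor of 6 or the mean of probe sets). Of these 13, SLF1, FANCB and FANCM each had another probe set that did not pass in a fit of all probe sets, which leaves 10. Of these 10, RAD51C alone had another probe set above the filter floor, so the rest were not checked in this way. For RAD51B, a probe set above 4 on 1 of 12 arrays had the opposite sign (log2 change 0.70). BRCA1, CHEK1, CHEK2, FANCI, FANCL, RAD50 and RMI1 were lost in some. Leaving out 1 array in turn gave 12 to 17 higher and 3 to 5 lower genes at 48 h. Over all 10665 genes the same fits gave 1880 to 2308 and 1744 to 2191. At 24 h there were 0 to 1 higher and 0 to 2 lower, against 30 to 343 and 51 to 424 of all genes. For the difference between times there were 0 to 2 higher, against 0 to 315. For controls with time 1 to 8 were lower, against 7 to 340. For Kbr with time 0 to 2 were higher and 0 to 2 lower, against 124 to 1182 and 164 to 1024. With the replicate block, which pairs the arrays, there were 2 higher and 5 lower at 24 h, 10 higher for the difference, 17 lower for controls with time, and 5 higher and 4 lower for Kbr with time; at 48 h it added UBE2T, FANCE and ATM and lost none. At 24 h the lower count of 1 became 2 with a floor of 6, the mean of probe sets, or an intensity trend with robust variance. Over all genes 347 of 10665 were lower, and 408 of 9340, 299 of 9922 and 431 of 10665 under these settings. The difference count of 1 became 0 with repeated quantile normalization, the array median subtracted, the mean of probe sets or the intensity trend. The count of 2 higher for Kbr with time became 1 under the same 4. Over all genes these counts were 7 and 597. They became 5, 2, 2 and 2, and 575, 539, 526 and 681, in that order of settings. The count of 1 lower for Kbr with time became 2 with a floor of 6 or the intensity trend. It became 3 with repeated quantile normalization and 0 with the mean of probe sets. Over all genes this count was 538, and 577, 624, 598 and 492 in the same order. RAD50 at 48 h turned from 0.43 to -0.28 with the mean of probe sets, and to -0.16 and -1.11 in its other probe sets. The causes were not tested. The number of arrays, and signals near the floor for FANCB and RAD51B, limit the precision.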

Other observations

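Of the 14 genes with more than 1 probe set above the filter floor, 5 had probe sets of both signs at 48 h: ATR, BARD1, BRIP1, NBN and RAD50. RAD50 was the 1 of these that had passed. Among the 8 genes with several such probe sets that had passed at 48 h, the others kept 1 sign. The 3 FANCB probe sets gave log2 changes of 1.27, 0.88 and 0.86, and the 3 CHEK1 probe sets 0.48, 0.46 and 0.52.

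Of 6 epithelial markers, 3 were lower with Kbr at 48 h in limma (20.8% of all genes were) and 0 higher, and 4 lower and 1 higher with the replicate block. CDH1, the epithelial cadherin, had a log2 change of -1.49 (adjusted p = 0.0148), KRT19 of -0.96 (adjusted p = 0.00330) and EPCAM of -0.41 (adjusted p = 0.0117). KRT8 had -0.66 (adjusted p = 0.0843, and 0.000430 with the block), KRT18 had 0.36 (adjusted p = 0.0871, and 0.0179 with the block) and KRT7 -0.11 (adjusted p = 0.819). The 2 proximal tubule markers tested had opposite signs, with SLC3A1 at -1.91 (adjusted p = 0.000395) and PAX8 at 0.40 (adjusted p = 0.128, and 0.0163 with the block). All 3 fibroblast markers tested were lower, COL1A1 by a log2 change of -2.06 (adjusted p = 7.34e-05), DCN of -1.69 and LUM of -1.62.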
